A study of Mus musculus with 6 samples.

Results

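The transcripts of the mitochondrial genome were examined in brain microglia of lupus-prone MRL/lpr mice and of MRL/mpj mice. They were taken as every gene of the count matrix whose symbol starts with mt-, which gave 37 of 55401 genes: 13 mRNAs, 2 rRNAs and 22 tRNAs. In MRL/lpr mice the Fas gene holds the lpr mutation, which prolongs the survival of autoreactive lymphocytes, and MRL/mpj mice are the strain of comparison. Both groups were 6 weeks old and untreated per the labels, and each had 3 libraries (replicates 1 to 3). The cells were prepared from perfused brains by enzymatic digestion, a Percoll gradient and magnetic beads against CD11b, an integrin subunit on the surface of myeloid cells. The labels do not give the number of animals behind a library, and the study's figure legend gives n = 3 mice for each strain. Whether each library came from a single animal is not stated, so the spread between libraries may be technical in part. Total counts ranged from 45481609 to 49846634 per library.

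Before the strains are compared, a few properties of the libraries bear on each value below. The methods describe female mice, but 4 genes of the Y chromosome (Ddx3y, Eif2s3y, Kdm5d and Uty) had between 924 and 7559 counts in each library. Xist, the RNA that coats the inactive X chromosome, was at 231, 240 and 213 CPM in the MRL/lpr libraries and at 0.564, 0.760 and 0.519 CPM in the MRL/mpj libraries. A difference between the strains and a difference in the sex or mixture of the animals therefore cannot be told apart. All 10 microglia markers were detected, with summed levels of 23928 to 27291 CPM in the MRL/lpr and 26204 to 27024 CPM in the MRL/mpj libraries. MRL/lpr replicate 3 stood apart in the rRNA rows, as described with the rRNAs.

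Mitochondrial DNA is a small circle whose genes are transcribed from both strands as long precursors. Most mRNAs and both rRNAs are flanked by tRNAs, and the precursors are cut at the tRNAs by RNase P and ELAC2. The 13 proteins are subunits of the respiratory chain and the ATP synthase, and the rRNAs and tRNAs serve to translate them inside the organelle. Here a heavy-strand transcript is an RNA of the precursor started at the heavy-strand promoter, and a light-strand transcript is an RNA of the opposite precursor. The annotation (GENCODE M21 on GRCm38) places 28 of the genes among heavy-strand transcripts, with 12 mRNAs, both rRNAs and 14 tRNAs. The other 9 are light-strand transcripts, namely mt-Nd6 and 8 tRNAs.

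Sequence decides how well reads of these genes can be told from those of other genes, so the stretches on which the results turn are given first. The sequences are of GENCODE M21 transcripts on GRCm38, written 5′ to 3′ in the sense of the transcript. A search of the annotated transcripts for near-identical nuclear copies found 11 that matched at 95% identity or more over at least 90% of the copy. Of these, 7 lay side by side on chromosome 1 (chr1:24611535-24616197, minus strand), where they were annotated as unprocessed pseudogenes, as are segments of mitochondrial DNA inserted into a chromosome. Only annotated transcripts were searched, so a copy in the stretches between them, for instance of mt-Atp8 or a tRNA, would not have been found. The copy of mt-Nd3, Gm28438, differed from the gene at a single base, T3C, counted from the first base of the gene. The bases around it (chrM:9459-9491 in the gene, and chr1:24613087-24613119 on the minus strand in the copy) are shown with the differing base in capitals.
mt-Nd3: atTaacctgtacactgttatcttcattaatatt
Gm28438: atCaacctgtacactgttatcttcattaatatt
The copy of the last part of mt-Co1, Gm29216, had the single difference A1066T, again in capitals (chrM:6390-6423, and chr1:24616155-24616188 on the minus strand).
mt-Co1: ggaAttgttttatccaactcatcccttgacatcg
Gm29216: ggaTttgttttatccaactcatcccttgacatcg
The other 5 copies on chromosome 1 were 100% identical to mt-Co2, mt-Atp6, mt-Co3, mt-Nd4l and mt-Nd4 over their aligned length. The first 60 bases of mt-Co2 (chrM:7013-7072) are shown with those of the identical copy Gm28661 (chr1:24615506-24615565) and of a copy on chromosome 2, Gm13341 (chr2:22587903-22587962), both on the minus strand. The capitals mark the bases at which Gm13341 differs.
mt-Co2: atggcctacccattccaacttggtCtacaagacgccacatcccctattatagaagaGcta
Gm28661: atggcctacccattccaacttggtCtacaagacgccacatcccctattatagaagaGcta
Gm13341: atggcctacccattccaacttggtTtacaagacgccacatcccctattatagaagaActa

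Reading frames also overlap within the mitochondrial genome. The reading frames of mt-Atp8 and mt-Atp6, both for subunits of the ATP synthase, share 43 bases. These are shown in capitals at the end of mt-Atp8 (chrM:7907-7969) and the start of mt-Atp6 (chrM:7927-7989).
mt-Atp8 end: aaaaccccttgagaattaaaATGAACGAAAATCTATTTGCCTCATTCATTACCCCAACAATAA
mt-Atp6 start: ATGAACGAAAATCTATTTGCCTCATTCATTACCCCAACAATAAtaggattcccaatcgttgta
The ends of mt-Nd5 (chrM:13532-13565, plus strand) and mt-Nd6 (chrM:13552-13585, minus strand) are complementary over 14 bases, in capitals.
mt-Nd5 end: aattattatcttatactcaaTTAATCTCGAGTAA
mt-Nd6 end: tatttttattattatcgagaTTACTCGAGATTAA
The labels name a kit that keeps the strand, but whether the counting used it is not given in the sources used here. Without strand, reads of mt-Nd6 and of the light-strand tRNAs cannot be told apart from reads of the opposite precursor. Finally, 3 tRNAs held most of the tRNA counts: mt-Tl1 for leucine (chrM:2676-2750, plus strand), mt-Te for glutamate (chrM:14071-14139, minus strand) and mt-Tp for proline (chrM:15356-15422, minus strand). Their anticodons are in capitals.
mt-Tl1: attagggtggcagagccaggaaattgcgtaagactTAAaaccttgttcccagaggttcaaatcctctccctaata
mt-Te: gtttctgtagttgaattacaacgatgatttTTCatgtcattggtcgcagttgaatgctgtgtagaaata
mt-Tp: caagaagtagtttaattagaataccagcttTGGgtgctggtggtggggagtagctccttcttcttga
The tRNA genes were 59 to 75 bases long, shorter than the reads of 150 bases. Counts at a tRNA therefore cannot be divided here between the mature tRNA and precursors that cross it.

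The 37 genes took a smaller share of the library in MRL/lpr microglia. They held 3.28%, 3.49% and 3.06% of all counts in MRL/lpr and 5.84%, 5.97% and 6.38% in MRL/mpj (replicates 1, 2 and 3 in that order, here and below). The groups did not overlap, and the mean shares were 3.28% ± 0.216 and 6.06% ± 0.282 (SD, n = 3 each), a log2 ratio of -0.89. With 3 libraries against 3, a 2-sided exact permutation test cannot give a p below 0.1, and that was its value (p = 0.113 adjusted by Benjamini-Hochberg over the 17 shares and ratios tested). In bulk RNA, fewer mitochondria-rich cells and less mitochondrial RNA per cell cannot be told apart.

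By class, the mRNAs made up nearly the whole of this share. The 13 mRNAs held 3.13%, 3.33% and 2.68% in the MRL/lpr libraries and 5.57%, 5.73% and 6.14% in the MRL/mpj libraries, a log2 ratio of -0.93. The 22 tRNAs together held 0.00755%, 0.00769% and 0.00684% against 0.0128%, 0.0118% and 0.0123%, a log2 ratio of -0.74. Neither class overlapped between the strains (exact permutation p = 0.1 for each). The 2 rRNAs held 0.141%, 0.147% and 0.372% against 0.249%, 0.225% and 0.221%, and here the third MRL/lpr library lay above all MRL/mpj libraries (log2 ratio of the means -0.07, exact permutation p = 1.0). The 9 light-strand transcripts held 0.0353%, 0.0337% and 0.0269% against 0.0709%, 0.0710% and 0.0712%, a log2 ratio of -1.15. Most of these counts were of mt-Nd6 (log2 ratio -1.19), and the 8 light-strand tRNAs had a log2 ratio of -0.85. The heavy-strand transcripts had a log2 ratio of -0.88, and of -0.93 without the rRNAs.

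**Figure D1:**
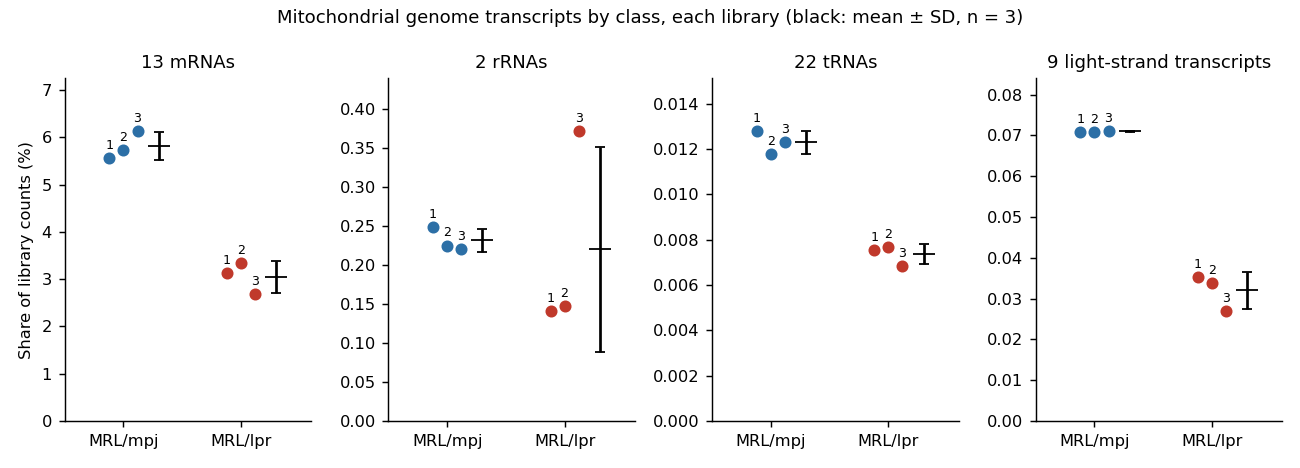
Share of all library counts (%, linear axis from 0) taken by the mRNAs, rRNAs, tRNAs and light-strand transcripts, with each library a numbered point and the mean ± SD (n = 3) in black. The strains do not overlap for mRNAs, tRNAs and light-strand transcripts, while MRL/lpr replicate 3 has the highest rRNA share, 0.372%.

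Gene by gene, 33 of the 37 had enough counts for a test, and 18 of these were lower and 0 were higher in the MRL/lpr libraries (adjusted p under 0.05, edgeR's quasi-likelihood test on counts scaled by TMM, Benjamini-Hochberg over all 19554 genes tested). Among all genes tested, 9.06% were lower and 11.1% were higher. At an unadjusted p under 0.05, 22 members were lower and 0 higher, and the share of all genes at that threshold was not computed. DESeq2 called 21 members lower and 0 higher, where of 24039 genes it called 2010 lower and 2350 higher. In 28 of the 33 genes the MRL/lpr libraries all lay below the MRL/mpj libraries, against 19.4% of all genes. Of the 33 genes tested, 3 were lower with a log2 fold change of at least 1 in size, the minimum used in the study. Of all genes tested, 3.66% were lower by that much. Among genes that were lower, 3 of the 18 members reached this size, against 716 of 1772 in the whole table. The 3 members were mt-Tm, the tRNA for methionine (-1.16), mt-Nd3 (-1.11) and mt-Nd6 (-1.07).

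**Figure D2:**
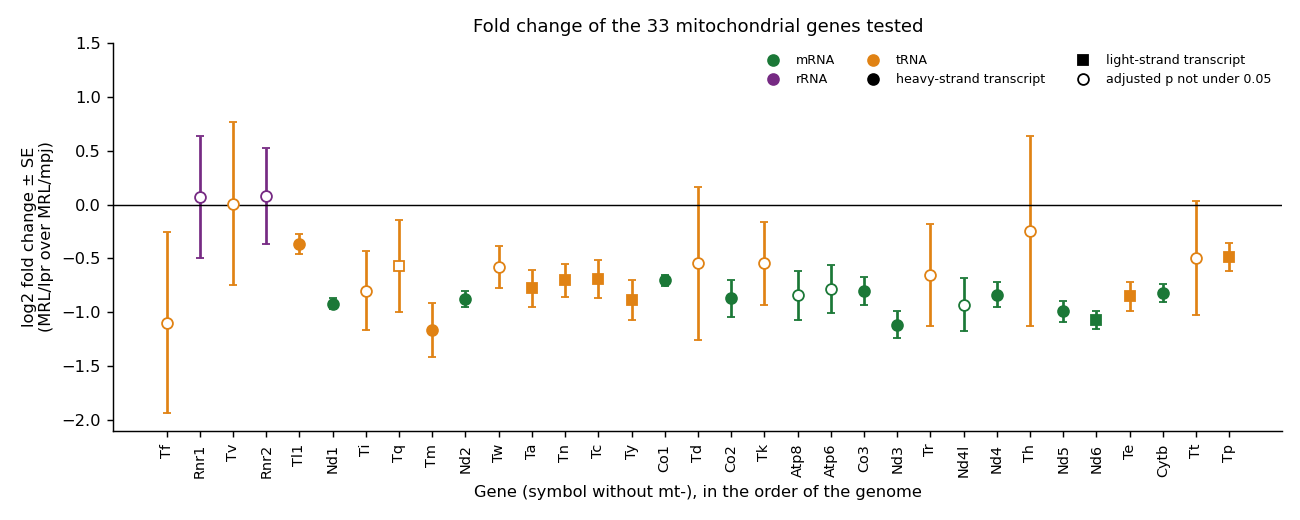
Log2 fold change ± SE (MRL/lpr over MRL/mpj, edgeR, TMM-scaled) of the 33 genes tested, in the order of the genome. Filled symbols passed the test, circles are heavy-strand and squares light-strand transcripts, and the colours give the class. All 13 mRNAs lie between -1.11 and -0.70, and the 2 rRNAs lie near 0 with wide errors.

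Among the mRNAs, 10 of 13 were lower, and the libraries of the strains did not overlap for any of the 13. Their log2 fold changes ranged from -1.11 to -0.70 with a median of -0.87. Cytochrome oxidase (complex IV) is encoded by mt-Co1, mt-Co2 and mt-Co3. mt-Co1, which carries the catalytic subunit and was the most abundant of all members, was at 11082, 11289 and 11357 TMM-scaled CPM in the MRL/lpr libraries and at 18347, 17949 and 18648 in the MRL/mpj libraries. The spread within a strain was small beside the gap, and the log2 fold change was -0.70 (SE 0.05, adjusted p = 1.39e-05 by edgeR). mt-Co2 was at 2741, 3427 and 2282 CPM against 4358, 5170 and 5894, with a log2 fold change of -0.87 (SE 0.17, adjusted p = 0.0143 by edgeR). mt-Co3 was at 2113, 2710 and 2052 CPM against 3482, 3944 and 4543, a log2 fold change of -0.80 (SE 0.13, adjusted p = 0.00394 by edgeR). Both varied more between libraries of a strain than mt-Co1 did. Without MRL/lpr replicate 3 the adjusted p of mt-Co2 was 0.0907 and that of mt-Co3 was 0.0854.

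The subunits of complex I, the NADH dehydrogenase, made up 7 of the mRNAs. mt-Nd1 was at 3014, 2932 and 2870 CPM against 5656, 5362 and 5635 (log2 fold change -0.92, SE 0.05, adjusted p = 4.89e-06 by edgeR). mt-Nd5, whose mRNA lies farther from the heavy-strand promoter, was at 1453, 1425 and 1099 CPM against 2607, 2588 and 2711 (log2 fold change -0.99, SE 0.10, adjusted p = 0.000136). mt-Nd3 was at 189, 226 and 176 CPM against 373, 406 and 499 (log2 fold change -1.11, SE 0.13, adjusted p = 0.000427). In each of these, the lowest MRL/mpj library was above the highest MRL/lpr library by more than the range of the MRL/lpr libraries. mt-Nd6, the only mRNA of the light-strand precursor, was at 317, 302 and 251 CPM against 606, 611 and 612, and the MRL/mpj libraries were nearly level (log2 fold change -1.07, SE 0.09, adjusted p = 3.07e-05). mt-Nd2 and mt-Nd4 had log2 fold changes of -0.87 and -0.84 and passed the test. mt-Nd4l was at 532, 683 and 386 CPM against 839, 989 and 1220, without overlap, but missed the threshold (log2 fold change -0.93, SE 0.25, adjusted p = 0.0554).

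mt-Cytb, the only mitochondrially encoded subunit of complex III, was at 4586, 4460 and 3638 CPM against 7495, 7481 and 7428 (log2 fold change -0.82, SE 0.09, adjusted p = 0.000145 by edgeR). Of the ATP synthase subunits, mt-Atp8 was at 694, 934 and 535 CPM against 1107, 1264 and 1504, and mt-Atp6 at 395, 552 and 326 CPM against 620, 712 and 856. Neither passed the test, with log2 fold changes of -0.84 (SE 0.23, adjusted p = 0.0554) and -0.78 (SE 0.22, adjusted p = 0.0632), although the libraries of the strains did not overlap. mt-Nd4l, mt-Atp8 and mt-Atp6 had the largest standard errors among the mRNAs.

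Levels can be compared between genes only per length, for which the deposited FPKM values were used. In the MRL/mpj libraries mt-Co1 was highest at 11030 ± 208 FPKM (SD, n = 3), followed by mt-Co2 at 6994 ± 1048, mt-Cytb at 6074 ± 27.4, mt-Atp8 at 5891 ± 914 and mt-Nd1 at 5397 ± 156. From mt-Co2 to mt-Nd1, neighbours in this order differed by less than the larger of their SDs. Counts on nuclear copies, described below, are not part of these levels. mt-Co3 (4735 ± 633), mt-Nd4 (3307 ± 447), mt-Nd2 (3304 ± 19.8) and mt-Nd4l (3182 ± 602) came next, and the last 3 did not differ beyond their SD. At the lower end were mt-Nd5 (1344 ± 33.9), mt-Nd3 (1139 ± 175), mt-Nd6 (1093 ± 6.01) and mt-Atp6 (997 ± 163), of which the last 3 did not differ beyond their SD. For mt-Atp6 an identical copy held 79.6%, 70.4% and 54.3% of the summed counts of gene and copy in MRL/mpj. Its place in this order leaves those counts out and depends on how reads were assigned. The same holds for mt-Co2, mt-Co3, mt-Nd3, mt-Nd4l and mt-Nd4, whose copies held smaller shares (for mt-Co3 41.6%, 30.2% and 17.9% in MRL/mpj). The labels describe a removal of rRNA, and the mitochondrial rRNAs were at 929 ± 56.5 (mt-Rnr2) and 624 ± 51.0 FPKM (mt-Rnr1). In the MRL/lpr libraries mt-Co1 was again highest, at 6226 ± 154 FPKM.

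**Figure D3:**
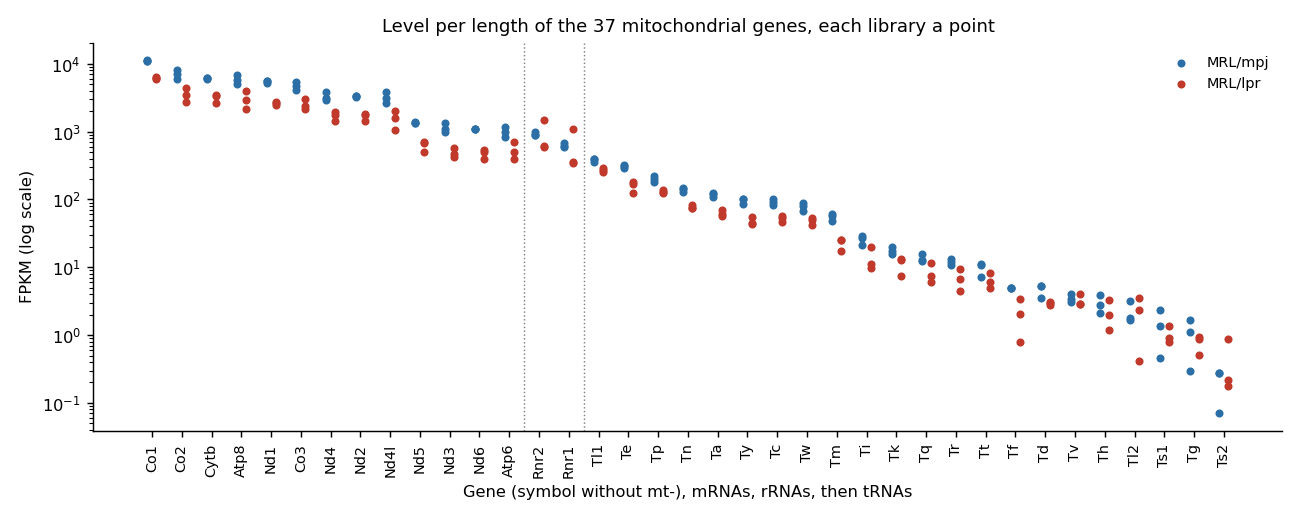
FPKM (log axis) of the 37 genes in each library, with mRNAs, rRNAs and tRNAs separated by dotted lines and ordered within a class by the MRL/mpj mean. The mRNAs run from 11030 FPKM for mt-Co1 to 997 for mt-Atp6 in the MRL/mpj mean, and the tRNAs from 382 for mt-Tl1 to 0.21 for mt-Ts2. Counts on nuclear copies, which held most of those of mt-Atp6, are left out.

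Counts of several mRNAs were split between the mitochondrial gene and its nuclear copy, in shares that differed from library to library. For mt-Co2, copies held 38.5%, 23.0% and 48.8% of the summed counts of gene and copies in MRL/lpr and 41.5%, 26.0% and 18.1% in the MRL/mpj libraries. Nearly all of this was on the identical copy Gm28661, with 48004 to 157775 counts, while Gm13341, which differs at 16 bases and 1 gap, had 206 to 1088 counts. The copies of mt-Co3, mt-Nd3, mt-Nd4l and mt-Nd4 followed the same order of libraries as that of mt-Co2. For mt-Nd3 the copy held 40.8%, 23.2% and 49.9% against 42.2%, 30.6% and 18.8%. mt-Atp6 had most of its counts on the copy, 78.7%, 53.2% and 83.5% in the MRL/lpr and 79.6%, 70.4% and 54.3% in the MRL/mpj libraries. Shares on copies overlapped between the strains. Whether the genomes of these MRL strains carry the insertion on chromosome 1 was not tested.

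When copies were added to their genes, the libraries of a strain drew together. The pooled within-strain SD of the log2 counts fell from 0.313 to 0.0843 for mt-Co2, from 0.250 to 0.0433 for mt-Co3, from 0.250 to 0.0780 for mt-Nd3 and from 0.409 to 0.168 for mt-Nd4l. For mt-Atp6 it changed from 0.373 to 0.348. The fitted log2 fold changes were then smaller in size, at -0.69 for mt-Co2 (SE 0.05, adjusted p = 1.53e-05 by edgeR), -0.64 for mt-Co3 (SE 0.07, adjusted p = 0.000123) and -0.94 for mt-Nd3 (SE 0.08, adjusted p = 3.13e-05). mt-Nd4l passed the test with copies added (log2 fold change -0.78, SE 0.07, adjusted p = 6.77e-05). mt-Atp6 did not (log2 fold change -0.55, SE 0.27, adjusted p = 0.247). In all, 19 of the 33 genes were then lower, and members plus copies held 3.94%, 3.85% and 3.82% of the MRL/lpr and 7.07%, 6.79% and 6.87% of the MRL/mpj libraries, a log2 ratio of -0.84.

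**Figure D4:**
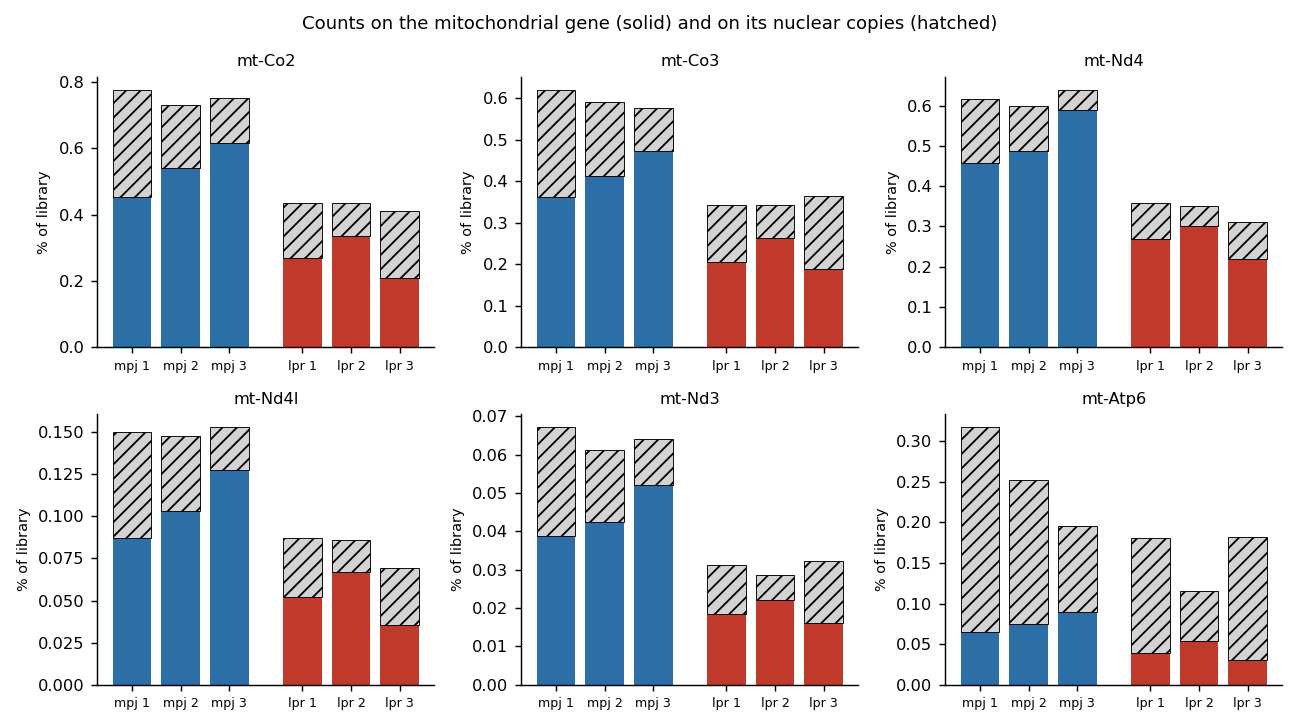
Counts on 6 mitochondrial genes (solid; MRL/mpj blue, MRL/lpr red) and on their nuclear copies (hatched), stacked, as % of library counts on a linear axis from 0. For mt-Co2 the hatched part varies from 18.1% to 48.8% of the bar while the bars of a strain have similar heights, whereas the bars of mt-Atp6 differ in height.

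The rRNAs of the small and large mitochondrial ribosomal subunits did not pass the test. In the MRL/lpr libraries mt-Rnr1 counts were 17596, 18488 and 52175, and in the MRL/mpj libraries 35949, 31062 and 31176. mt-Rnr2 had 50361, 52461 and 117201 counts against 86916, 76573 and 78854. In both genes MRL/lpr replicate 3 was the highest of all libraries and the other 2 MRL/lpr libraries were the lowest. The log2 fold changes were 0.07 for mt-Rnr1 (SE 0.56, adjusted p = 0.956 by edgeR) and 0.07 for mt-Rnr2 (SE 0.44, adjusted p = 0.939). Without MRL/lpr replicate 3 they were -0.73 (SE 0.07, adjusted p = 0.000367) and -0.53 (SE 0.05, adjusted p = 0.000350), so that this library decided the call. In the same library CT010467.1, an rRNA gene outside the mitochondrial genome, took 6.38% of the counts, against 0.169% to 0.458% in the other libraries. The removal of rRNA in that library was not tested. Per 1000 mRNA counts, rRNA stood at 45.2, 44.1 and 139.1 in the MRL/lpr libraries and at 44.6, 39.3 and 35.9 in the MRL/mpj libraries (exact permutation p = 0.2).

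**Figure D5:**
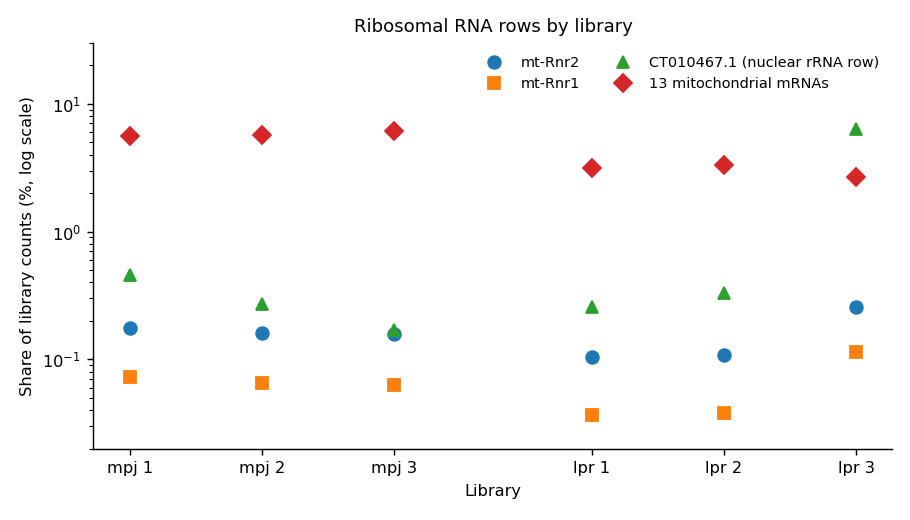
Share of library counts (%, log axis) of mt-Rnr1, mt-Rnr2, the rRNA gene CT010467.1 and the 13 mitochondrial mRNAs together in each library. In MRL/lpr replicate 3 CT010467.1 reaches 6.38% and both mitochondrial rRNAs are at their highest, while the mRNAs are at their lowest, 2.68%.

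Of the 22 tRNAs, 18 were tested, and 8 were lower and 0 higher, with a median log2 fold change of -0.62. mt-Tl1, the leucine tRNA between mt-Rnr2 and mt-Nd1, held 25.5% to 31.7% of the tRNA counts. It was at 23.5, 25.0 and 23.5 CPM in the MRL/lpr libraries and at 31.7, 28.7 and 32.1 in the MRL/mpj libraries, a log2 fold change of -0.36 (SE 0.09, adjusted p = 0.0219 by edgeR), the smallest in size among the tRNAs that passed. mt-Tm was at 2.02, 1.98 and 1.46 CPM against 4.18, 4.48 and 3.57 (log2 fold change -1.16, SE 0.25, adjusted p = 0.00907). These were the only tRNAs of the heavy-strand precursor to pass, 2 of 11 tested. mt-Tl1 missed the threshold in 4 of 15 alternative fits, and mt-Tm in 0.

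Of the light-strand tRNAs, 6 of 7 tested were lower, where 9.06% of all genes were. The median log2 fold change was -0.70, against -0.55 for the heavy-strand tRNAs tested. The difference in calls between the strands was not tested. mt-Te for glutamate was at 14.2, 13.2 and 10.3 CPM against 23.4, 21.2 and 23.6 (log2 fold change -0.85, SE 0.14, adjusted p = 0.00205 by edgeR). mt-Tp for proline was at 10.4, 9.69 and 10.6 CPM against 15.99, 14.2 and 12.9 (log2 fold change -0.49, SE 0.13, adjusted p = 0.0286), and it missed the threshold in 5 of 15 alternatives. The cluster mt-Ta (alanine), mt-Tn (asparagine), mt-Tc (cysteine) and mt-Ty (tyrosine), between mt-Tw and mt-Co1, had log2 fold changes of -0.78, -0.70, -0.69 and -0.89 and all passed, but mt-Tc missed the threshold in 4 of 15 alternatives and mt-Ta in 1. mt-Tq for glutamine did not pass (29, 45 and 22 counts against 61, 48 and 51). The 10 tRNAs that were tested without passing had log2 fold changes from -1.09 (mt-Tf) to 0.01 (mt-Tv) and adjusted p-values from 0.0654 to 0.995, and none of them had more than 323 counts in a library. Another 4, mt-Ts1, mt-Ts2, mt-Tg and mt-Tl2, had 1 to 14 counts per library and were not tested. A difference in these was not detectable at this depth.

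The members were also compared with the mitochondrial mRNAs as a whole, which asks whether a gene moved more or less than its neighbours. Scaled to the summed mRNA counts, 2 genes were lower and 1 higher of 33, where 2.05% of all genes were lower and 60.5% higher under this scaling. mt-Tl1 was higher relative to the mRNAs (log2 fold change 0.45, SE 0.11, adjusted p = 0.00528 by edgeR), and in the 13 alternatives its value was between 0.39 and 0.58 and passed in each. mt-Nd3 and mt-Nd6 were lower relative to the mRNAs, with log2 fold changes of -0.30 (SE 0.10, adjusted p = 0.0245) and -0.26 (SE 0.09, adjusted p = 0.0261). mt-Nd3 passed in 6 of 13 alternatives and missed with copies added (adjusted p = 0.0642). mt-Nd6 passed in 7 of 13. With copies added 3 genes were lower, namely mt-Nd6 (log2 fold change -0.32, adjusted p = 0.00709), mt-Nd5 (-0.24, adjusted p = 0.0466) and mt-Nd1 (-0.17, adjusted p = 0.020). Without them mt-Nd5 and mt-Nd1 had values of -0.18 (adjusted p = 0.0972) and -0.10 (adjusted p = 0.318). Relative to the mRNAs, mt-Rnr1 and mt-Rnr2 had log2 fold changes of 0.93 (SE 0.61, adjusted p = 0.244) and 0.93 (SE 0.49, adjusted p = 0.161), and without MRL/lpr replicate 3 of 0.01 and 0.22.

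Classes and strands were also set against each other within each library. Per 1000 mRNA counts there were 2.41, 2.31 and 2.56 tRNA counts in MRL/lpr and 2.30, 2.06 and 2.004 in MRL/mpj, a log2 difference of 0.20. Per 1000 heavy-strand mRNA counts there were 10.02, 8.93 and 8.67 light-strand counts, all of mt-Nd6, against 11.4, 11.3 and 10.5, a log2 difference of -0.27. For tRNAs the light-strand counts per 1000 heavy-strand counts were 1322, 1214 and 1294 against 1570, 1537 and 1448, a log2 difference of -0.25. In each ratio the strains did not overlap, with the smallest p the design allows (exact permutation p = 0.1, adjusted p = 0.113). The light-strand to heavy-strand tRNA ratio rested on its most abundant members: without mt-Tl1 and mt-Te the log2 difference was 0.048. The tRNA to mRNA ratio includes mt-Tl1. It made up 30.4%, 31.7% and 31.5% of the tRNA counts in MRL/lpr and 25.7%, 25.5% and 27.2% in MRL/mpj. That ratio therefore does not show that the other tRNAs rose relative to the mRNAs.

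Nuclear genes that serve the mitochondrial genome were read from the same fit. Of 27 genes for the transcription and replication of mitochondrial DNA, 2 were lower and 0 higher by edgeR, by DESeq2 and at an unadjusted p under 0.05, with a median log2 fold change of -0.14. These were Tfb2m, a transcription initiation factor (-0.84, SE 0.15, adjusted p = 0.00328 by edgeR), and Exog, a nuclease (-0.76, SE 0.14, adjusted p = 0.00488). The polymerase gene Polrmt had 963, 1055 and 926 counts against 1378, 1225 and 1246 (log2 fold change -0.21, adjusted p = 0.175), and the packaging factor gene Tfam had a log2 fold change of -0.16 (adjusted p = 0.313). Of 36 genes for mitochondrial RNA processing and decay tested, 2 were lower and 2 were higher, with a median of -0.13. Nsun3, a methyltransferase of the mitochondrial methionine tRNA, had a log2 fold change of -1.10 (SE 0.18, adjusted p = 0.00237). That of Lrpprc, which stabilises mitochondrial mRNAs, was -0.27 (adjusted p = 0.0493, past the threshold in 3 of 10 alternatives). Tbrg4 and Pde12 were higher by 0.55 and 0.36, and passed in 5 and 4 of 10 alternatives. Slirp, the partner of Lrpprc, had 201, 346 and 487 counts against 447, 721 and 433 and did not pass (log2 fold change -0.44, adjusted p = 0.500). The processing genes Elac2 and Trmt10c (-0.23 and -0.31) and the decay and polyadenylation genes Pnpt1, Supv3l1 and Mtpap (0.23, -0.10 and -0.06) did not pass either. In neither list was the share of genes called above that of all genes, 9.06% lower and 11.1% higher.

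Of 78 mitochondrial ribosomal protein genes, 4 were lower and 0 higher, with a median of -0.18, and of 17 mitochondrial aminoacyl-tRNA synthetase genes 1, Wars2 (-0.48), was lower. Of 83 nuclear genes for subunits of the respiratory chain and ATP synthase, 8 were lower and 0 higher, with a median of -0.17. Cox6a2, a subunit form of cytochrome oxidase known from muscle, was at 79, 93 and 66 counts against 288, 202 and 350 (log2 fold change -1.64, SE 0.26, adjusted p = 0.00176 by edgeR), and Atp5s, in the list by its symbol, had a log2 fold change of -0.93 (adjusted p = 0.0100). In these 3 lists 0 genes were higher by edgeR's adjusted p, as in DESeq2, while at an unadjusted p under 0.05 the ribosomal list had 3 higher and the others 0. At that unadjusted threshold, 17 ribosomal protein, 3 synthetase and 17 respiratory subunit genes were lower, and the share of all genes was not computed. By adjusted p, the share that was lower was near or under the 9.06% of all genes in each list. The median of the 13 mitochondrial mRNAs was -0.87, against -0.17 for the nuclear subunits with which their proteins assemble. This difference between the medians was not tested.

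Several marker lists moved with the strains, and their part in the results was not tested. The 6 markers of choroid plexus and ependyma summed to 356 to 372 CPM in the MRL/lpr libraries and to 1046 to 1130 in the MRL/mpj libraries. The 8 neuron markers summed to 15.3 to 18.8 CPM against 33.4 to 37.7, the 6 astrocyte markers to 107 to 153 against 183 to 189, and the 6 oligodendrocyte markers to 85.0 to 99.5 against 125 to 155. The 5 monocyte markers were at 65.8 to 77.5 CPM against 78.5 to 83.01. Other lists were higher in the MRL/lpr libraries. The 6 T cell markers were at 11.1 to 17.1 CPM against 2.50 to 2.92, the 6 endothelial markers at 1660 to 1828 against 1473 to 1527, the 7 neutrophil markers at 676 to 805 against 543 to 608 and the 5 erythrocyte markers at 685 to 1134 against 610 to 674. The B cell markers overlapped between the strains, at 9.20 to 10.5 against 8.43 to 10.001 CPM. No marker of these lists was at 3 counts or fewer in every library. Among 6 RNAs retained in the nucleus, 2 were higher, Malat1 by 1.09 (SE 0.19, adjusted p = 0.0101 by edgeR) and Neat1 by 1.23 (SE 0.10, adjusted p = 3.06e-05), where 11.1% of all genes were higher. The median log2 fold change of the 6 was 0.19. Of 5 cytosolic rRNA and RNA polymerase III genes tested with edgeR, 0 passed, with 0 at an unadjusted p under 0.05 and 0 with DESeq2. Their median log2 fold change was 1.63, and the list summed to 69797 CPM in MRL/lpr replicate 3 and to 1646 to 4445 CPM in the other libraries.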

How the data were processed

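The members and gene lists were chosen with earlier results of these data known. Per the labels, ribosomal RNA was removed and stranded libraries were made, whereas the study's methods describe purified mRNA. The authors trimmed reads of 150 bases (cutadapt 1.9.3) and aligned them (HISAT2 2.0.4) to GRCm38, and the submitters' processing notes also list Cufflinks and Cuffdiff 2.2.1. The counting tool and its handling of strand and of reads with several matches are not given in the sources used here. The authors deposited a matrix of unnormalised counts by gene and, for each library, FPKM values, which relate a count to gene length and depth. Of the 55401 identifiers, 55141 matched GENCODE M21.

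The strains were compared with edgeR 4.0.16 (R 4.3.3) on the deposited counts, with filterByExpr (minimum count 10, minimum total 15), TMM, robust quasi-likelihood dispersions and Benjamini-Hochberg adjustment over 19554 genes. The common biological coefficient of variation was 0.26. CPM values were scaled by TMM. Each SE beside an edgeR log2 fold change was the size of that fold change divided by the square root of the test's F statistic. A second fit set library sizes to the summed counts of the 13 mitochondrial mRNAs. Shares and ratios were compared by 2-sided exact permutation tests (scipy 1.17.1). Nuclear copies were found with BLAST 2.17.0. All 37 members are named, and in each nuclear list the 2 largest called increases and decreases with at least 10 counts in each library, 9 genes whatever their values, and abundant noncoding RNAs over 1% of a library. The steps were tested on simulated data. Alternatives were DESeq2 1.42.0, other scalings and filters, counts divided by 4, a replicate block, each library left out, and counts of nuclear copies added to their genes. The last was added only after the data were seen for the values relative to the mRNA total and for the ratios.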

Additional observations from a re-analysis of the deposited data

How the results depend on the processing

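The count of mitochondrial genes that were lower ranged from 14 to 20 when a library was left out and from 15 to 22 over the other alternatives, 0 were higher in each, and all 13 mRNAs kept a negative log2 fold change under each scaling. Scaled by library size alone, all genes had a median log2 fold change of -0.13 (TMM -0.01), 22 members were lower, and the split of all genes was 1634 higher and 2790 lower against 2178 and 1772. The count with a log2 fold change of at least 1 in size was then 7, and it was 8 without MRL/lpr replicate 2 (range without 1 library 2 to 8). Relative to the mRNA total, the count of lower genes was 0 when scaled without mt-Co1, 0 when scaled to the median of ratios, 0 with the replicate block, 3 with copies added, and 0 to 2 without 1 library.

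Signs turned only for values that had not passed. With library size only, mt-Rnr1, mt-Rnr2 and mt-Tv stood at -0.078, -0.069 and -0.12, and with the replicate block at -0.19, -0.085 and -0.0094. Without 1 library, mt-Rnr1 ranged from -0.73 to 0.36, mt-Rnr2 from -0.53 to 0.31, mt-Tv from -0.22 to 0.11, mt-Th from -0.67 to 0.035, Supv3l1 from -0.21 to 0.0036, Mtpap from -0.15 to 0.012 and the log2 ratio of rRNA shares from -0.68 to 0.17, which was 0.0013 with a denominator without the 20 most abundant other genes. The light-strand to heavy-strand log2 difference turned to 0.048 for tRNAs without the most abundant members, and for all genes but rRNAs to 0.13 without overlapping genes and to 0.15 without the most abundant members. Relative to the mRNA total, mt-Nd1 turned to 0.030 with the median of ratios. The light-strand settings leave out mt-Nd6, the only light-strand mRNA, so the ratio of mRNAs could not be computed under them.

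With library size only, 6 of 36 RNA processing, 2 of 17 synthetase, 16 of 78 ribosomal protein and 18 of 83 respiratory subunit genes were lower. In that fit 0 RNA processing genes were higher, and of all 19554 genes 2790 were lower and 1634 higher. With the replicate block 1, 0, 1 and 4 were lower and 0 RNA processing genes were higher, where 1309 of all genes were lower and 1754 higher. Without 1 library the ranges of lower genes were 1 to 2, 0 to 1, 1 to 4 and 3 to 10, and of higher genes 0 to 2 for RNA processing and 0 to 1 for respiratory subunits. Of all genes, 1177 to 1971 were then lower and 1626 to 2363 higher. The deviations of libraries with the same replicate number had correlations of -0.041, -0.020 and -0.033. These show no shared deviation, but they cannot exclude that samples were handled in pairs. With the replicate block 15 members were lower. Among single genes, members and named nuclear genes together, 615 of the strain values kept side and direction, 54 no longer passed, 16 newly passed and 15 turned in sign. Of those that turned, mt-Rnr1 and mt-Rnr2 without MRL/lpr replicate 3 also newly passed. Low tRNA counts limit what could be detected.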

Other observations

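The deposited counts of the mitochondrial tRNAs carried a trace of how they were made. In each library, 18 to 21 members had fewer than 500 counts, and for all of them the count equalled the value computed back from FPKM and gene length, rounded up (tolerance 0.02 counts). Rounding to the nearest whole number gave the count for 7 to 12 of them. Across all genes, 1138 to 1288 genes per library had 4 counts, against 320 to 415 with 3 counts and 211 to 261 with 5 counts.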
